A study of Mus musculus with 72 samples.

Results

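Complement and coagulation are the blood's paired protease cascades, and the liver makes most of their plasma proteins. Transcripts of 36 such genes, chosen by symbol as liver-made complement and coagulation factors and their inhibitors, were followed in nuclei of mouse livers with and without tumours. The 36 were all found by symbol among the 20105 genes of the table, and all 36 passed the filter on low counts in both kinds of nuclei, the lowest count of any of them in any library being 89 (C8g). They comprise 17 genes of complement (4 of the lectin pathway, 4 of the convertases, 6 of the terminal pathway and 3 inhibitors) and 19 of coagulation, the contact system and fibrinolysis.

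As background, complement is switched on by antibodies, by lectins that bind microbial sugars, or spontaneously on surfaces, and these routes meet where convertases cut C3. The terminal proteins then assemble a pore in the target membrane, and inhibitors hold the convertases in check on host cells. Coagulation runs through vitamin K-dependent proteases to thrombin and fibrin, with antithrombin and the protein C system as brakes and plasmin as the enzyme that dissolves the clot. Hepatocytes secrete nearly all of these proteins, and several belong to the acute-phase proteins that the liver makes in inflammation.

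All animals were Hep-INTACT mice of the genotype CAG-Sun1/sfGFP, Albumin-Cre, in which Albumin-Cre, active in hepatocytes, turns on a tagged nuclear envelope protein; the control animals carried it too. BALB/c mice received C26 or NC26 tumour cells and C57BL/6N mice received 8025 or MC38 cells, each cohort with its own PBS-treated controls and 4 animals per arm. C26 and MC38 are mouse colon carcinoma lines, and each arm used a single tumour line. The C26 and 8025 tumours caused cachexia, the wasting seen in cancer, and livers of those arms were taken after more than 10% loss of body weight. A further C26 arm was taken in the stage called pre-cachexia, and the NC26 and MC38 tumours left weight stable. Livers were collected at zeitgeber time 9. Hepatocyte nuclei, pulled out by their tag on beads, and nuclei of the whole liver were sequenced separately for each of the 36 animals. The sources used here give no age or sex.

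The hepatocyte libraries held 8.49 to 56.4 M counts (median 26.1 M) and the whole liver libraries 12.2 to 30.3 M (median 20.1 M), M standing for a count of 1000000. The 36 genes took 0.927 to 2.20% and 0.839 to 1.88% of them. Values are CPM, counts per 1000000 counts of the library after TMM scaling, given in the order of the animals' numbers 1 to 4. All 10 hepatocyte markers were present in every group of hepatocyte libraries. In PBS animals all 10 endothelial, all 10 Kupffer and macrophage, and all 10 stellate markers were lower in the hepatocyte nuclei than in whole liver, with median log2 fold changes of -2.65, -2.76 and -2.47. Cholangiocyte markers differed far less. In C26, NC26, 8025 and MC38 PBS animals their median sums were 162, 188, 224 and 230 CPM in hepatocyte nuclei. In whole liver they were 194, 207, 274 and 269 CPM. Hepatocyte marker sums were 14639, 15708, 13035 and 16790 CPM in hepatocyte nuclei and 16850, 14322, 13304.5 and 15118 CPM in whole liver. The libraries of C26 PBS animal 1 stood apart. Its hepatocyte library had the highest share of ribosomal-RNA-like counts among the hepatocyte libraries (7.0%). Its whole liver library had the lowest share of the C26 PBS whole liver libraries (1.09%). That library also had their highest sum over the 36 genes (10435 CPM). Over all genes the deviations of its hepatocyte and whole liver libraries from their group means correlated at -0.19, against a median of 0.54 over the 36 animals. This cannot show which library is at fault. Counts in hepatocyte nuclei against the C26 PBS animals are also given without this animal. In whole liver nuclei its removal enters only the calls and ranges given for the alternatives.

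RefSeq promoter windows on GRCm38.p6, whose coordinates are those of mm10, matched 27 of the 36 genes. Windows are shown for 5 genes that rose: F9, which was called higher with C26 alone, and C3, Kng2, Pros1 and Cpb2, which rose with both. The first 4 were picked because they hold a match to one of the motifs below, and Cpb2 to show a gene with a large rise and no match. Each is the 150 bases before the RefSeq start site, 5′ to 3′ on the gene's strand, with matches to a STAT motif (TTCNNNGAA) or a C/EBP motif (TTGCNNAA) in capitals. STAT proteins and C/EBP are transcription factors of the acute-phase response.
F9 (chrX:59999314-59999463, plus strand): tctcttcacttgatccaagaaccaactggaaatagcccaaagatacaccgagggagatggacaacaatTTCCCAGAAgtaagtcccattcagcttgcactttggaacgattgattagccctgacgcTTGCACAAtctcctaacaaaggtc
C3 (chr17:57228137-57228286, minus strand): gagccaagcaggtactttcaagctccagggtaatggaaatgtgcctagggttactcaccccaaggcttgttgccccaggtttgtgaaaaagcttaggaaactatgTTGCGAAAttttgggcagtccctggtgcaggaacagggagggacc
Kng2 (chr16:23029102-23029251, minus strand): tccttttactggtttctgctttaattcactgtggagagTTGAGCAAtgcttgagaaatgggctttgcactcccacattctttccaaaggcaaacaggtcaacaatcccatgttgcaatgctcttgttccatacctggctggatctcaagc
Pros1 (chr16:62854157-62854306, plus strand): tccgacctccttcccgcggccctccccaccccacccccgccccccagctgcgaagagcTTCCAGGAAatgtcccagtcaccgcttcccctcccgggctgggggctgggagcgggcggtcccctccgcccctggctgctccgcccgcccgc
Cpb2 (chr14:75242137-75242286, plus strand): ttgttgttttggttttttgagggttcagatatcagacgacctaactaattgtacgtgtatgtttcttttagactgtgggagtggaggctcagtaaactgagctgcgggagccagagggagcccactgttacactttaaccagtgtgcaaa
F9 held a match to each motif, C3 and Kng2 held a C/EBP match, and Pros1 held a STAT match. Cpb2 held neither, also in the 250 bases before its start. The Pros1 window ends 27 bases before the gene start of the count table.

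The 250 bases before the start were searched on both strands. Matches were counted by gene for the 27 genes and by window over all mouse windows. The STAT motif lay in 4 of the 27 genes (14.8%, against 7.02% of 32851 mouse windows of the same length). The C/EBP motif lay in 6 (22.2% against 9.56%). The GTTAAT part of the site of HNF1, a liver transcription factor, also lay in 6 (22.2% against 6.43%), and CAAAGTCCA, a form of the site of the liver factor HNF4, in 0 of 27 (0.384% of all windows). In the windows shown, no match overlaps another. Among the 13 matched genes that rose with either cachexia tumour in hepatocyte nuclei, 2 held the STAT, 3 the C/EBP and 3 the HNF1 letters. The other 14 matched genes held them in 2, 3 and 3 cases. These are matches of letters only.

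Transcript levels were first compared in hepatocyte nuclei of the 16 PBS animals, counted with introns and set per kilobase of counted length. The 36 genes ranged from 34.4 ± 7.58 CPM per kb for Cfb, the protease of the alternative convertase, to 1.48 ± 0.34 for Pros1, protein S (SD, n = 16). C3, the protein on which all complement routes meet, came next to Cfb at 33.3 ± 23.5, followed by F2, prothrombin, at 26.7 ± 6.46, Masp2 at 26.1 ± 4.93 and Serpinc1, antithrombin, at 24.3 ± 2.35. Each of these 5 differed from the next in the order by less than the larger of their SDs. The animals differed most in C3, whose highest PBS level was 8.10-fold the lowest, then in C8b (6.89-fold) and Mbl1 (5.20-fold), and least in Serpinc1 (1.37-fold).

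Between the strains 13 of the 36 genes differed in PBS hepatocyte nuclei, against 41.2% of all genes tested. Of the 13, 4 were higher in BALB/c (against 20.5% of all genes) and 9 lower (against 20.7%). Here and below a gene is called changed at an adjusted p under 0.05 in edgeR's quasi-likelihood test, with Benjamini-Hochberg adjustment over all 13274 genes tested in hepatocyte nuclei (13738 in whole liver). F7, factor VII, stood at 69.1 ± 15.2 CPM in BALB/c and 132 ± 10.6 in C57BL/6N (SD, n = 8 each), a log2 difference of -0.93 (SE 0.15, adjusted p = 1.5e-05), and the strains did not overlap. C2, the protease of the classical and lectin convertase, had a lowest, median and highest value of 84, 100.5 and 114 CPM in BALB/c and 138, 192 and 242 in C57BL/6N, again without overlap (log2 change -0.95, SE 0.18, adjusted p = 9.8e-05). C3 ran from 246 to 820.5 CPM (median 491) in BALB/c and from 339 to 1996 (median 1194) in C57BL/6N, so the strains overlapped, with a difference of -1.07 (SE 0.30, adjusted p = 0.0053). Also lower in BALB/c were Proc, F10, Serping1, F2, F12 and Kng1, and higher were C4bp, Mbl1, C8g and Serpind1. Without C26 PBS animal 1, 15 genes were called (3 higher, 12 lower) and C8g was not (adjusted p = 0.0824). The C8g level of that animal was 37.7 CPM. Serpind1 was not called without 8025 PBS animals 2 or 3 or C26 PBS animals 2 or 3 (adjusted p between 0.0506 and 0.0848), and Mbl1 not without C26 PBS animal 4 (adjusted p = 0.0512). Each strain stands for 2 cohorts, so strain and cohort cannot be told apart.

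In C26 cachexia 17 of the 36 genes rose in hepatocyte nuclei and none fell, against 22.2% of all genes tested that changed (12.2% higher and 10% lower). Their median log2 fold change was 0.56, against 0.00 over all genes. Summed over the 36 genes, the level was 9344 to 10130 CPM in PBS animals and 15678 to 20559 CPM in cachexia. In 8025 cachexia 15 rose and 5 fell, against 29.3% of all genes (16.2% higher and 13.1% lower), with a median of 0.21 against -0.02 over all genes. The sum was 10314 to 12770 CPM in PBS animals and 14554 to 20586 CPM in 8025 cachexia, whose animal 3 was lowest, at 14554 CPM against at least 19769 in the other 3 animals. Of the 36 genes, 15 lay above and 2 below the PBS range in all 4 C26 cachexia animals, against 11.7% and 9.07% of all genes tested. In 8025 cachexia 12 lay above and 4 below, against 14.7% and 13.4%. Without C26 PBS animal 1 the C26 count was 16 higher and 1 lower.

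Other markers moved in the same libraries. Kupffer and macrophage markers were called higher for 6 of 10 genes in C26 cachexia. Their sum was 44.7 to 73.1 CPM in PBS animals and 80.6 to 121 CPM in cachexia. In 8025 cachexia they were higher for 9 of 10 (43 to 53.9 against 131 to 163 CPM). Cholangiocyte markers were higher for 1 of 8 and 6 of 8 genes, with sums of 81.6 to 191 and 101 to 235 CPM in the C26 arms and 218 to 289 and 214 to 680.3 CPM in the 8025 arms. Endothelial markers were higher for 2 of 10 and 1 of 10, and stellate markers for 3 of 10 and 4 of 10, with 1 lower in 8025. Of the 10 hepatocyte markers, 2 were higher and 1 lower in C26 cachexia and 1 was higher and 1 lower in 8025 cachexia. Their sums were 14509.7 to 16611 and 16185 to 28029 CPM in the C26 arms and 12689 to 13359 and 11166 to 15484 CPM in the 8025 arms. None of these markers was at 0 in a whole group. Blood cell markers were low. Neutrophil markers summed to 0.501 to 1.49 and 1.3 to 2.63 CPM in the C26 arms and to 0.646 to 1.25 and 6.59 to 10.2 CPM in the 8025 arms. Ly6g, Ngp and Retnlg were at 0 in all 8025 PBS animals, and Ngp, Retnlg, S100a8 and S100a9 in all C26 PBS animals. T and NK cell markers summed to 6.99 to 23.9 and 7.2 to 16.1 CPM in the C26 arms and 7.75 to 28.1 and 18.2 to 103 CPM in the 8025 arms. Platelet and megakaryocyte markers summed to 7.29 to 19.4 and 14.3 to 23.6 CPM and to 9.15 to 10.6 and 10.9 to 14.7 CPM in the same order, and B and plasma cell markers to 9.94 to 13.1 and 9.86 to 23.4 CPM and to 14.8 to 23.8 and 15.5 to 22.1 CPM. The filter on low counts left 1 of 8 neutrophil, 4 of 7 T and NK cell, 2 of 8 platelet and 3 of 6 B and plasma cell markers to test. In 8025 cachexia 1 each of the first 3 lists was called higher, and 1 platelet marker lower. In C26 cachexia 1 neutrophil and 1 platelet marker were called higher and 1 T and NK cell marker lower. The part of all these markers in the results was not tested. In bulk nuclei, fewer cells of a type and less RNA per cell cannot be told apart.

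**Figure D1:**
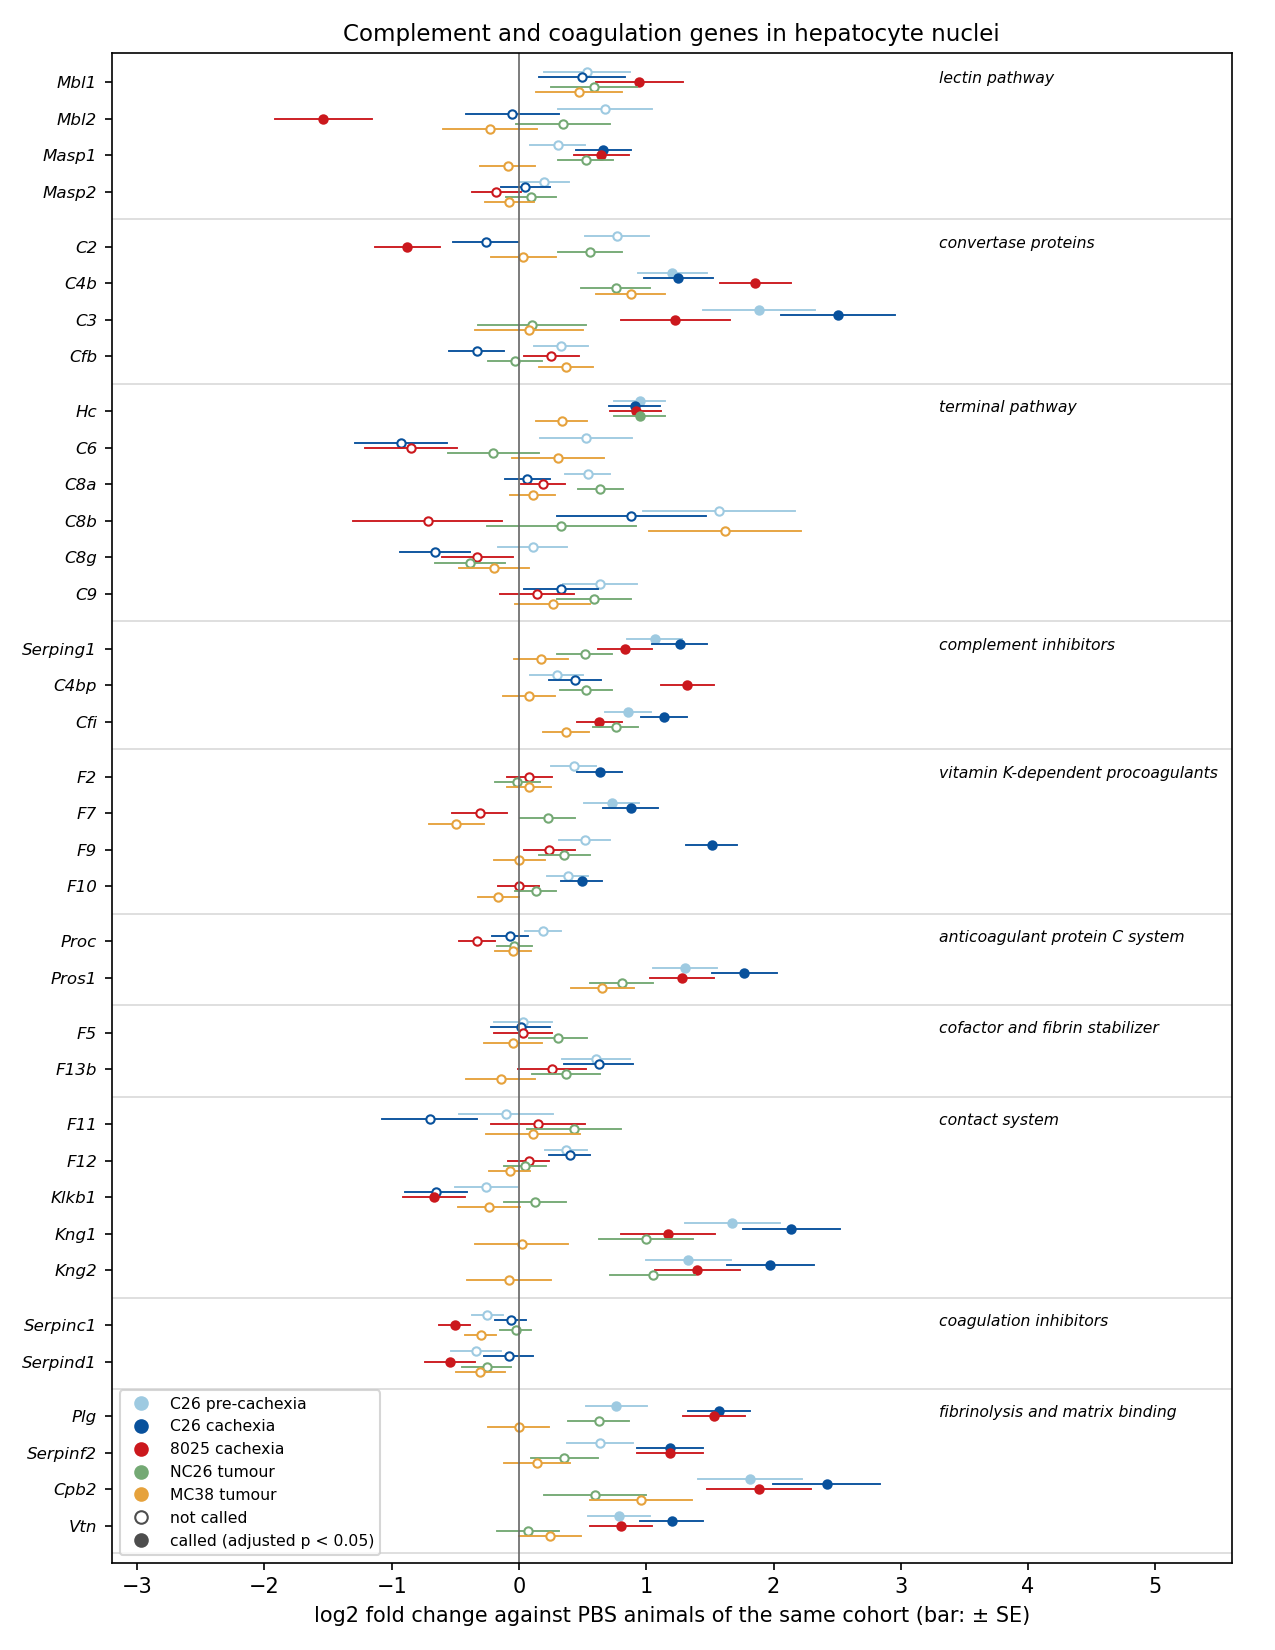
Log2 fold change against PBS animals of the same cohort (x axis, bar ± SE) for each of the 36 genes, ordered by role (y axis), in hepatocyte nuclei; colours are the 5 tumour arms, each of 4 animals against 4, and filled points are called at an adjusted p under 0.05. Filled points lie on the right for 17 genes in C26 cachexia and for 15 in 8025 cachexia, and on the left for 5 genes in 8025 cachexia; the NC26 arm has 1 filled point (Hc) and the MC38 arm none.

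Of the 4 lectin pathway genes, Masp1 rose with both cachexia tumours, and the pair of mannose-binding lectins parted with 8025, Mbl1 rising and Mbl2 falling. Mbl2, a sugar-binding protein that starts the pathway, stood at 51.8, 49.5, 59.2 and 55.9 CPM in 8025 PBS animals and at 26.1, 16.6, 10.5 and 21.4 CPM in 8025 cachexia. All 4 cachexia animals lay below all 4 controls, and the gene fell by 1.54 on the log2 scale (SE 0.38, adjusted p = 0.0027), the lowest value of the 36 in that comparison. In the C26 arms Mbl2 stood at 27.8, 40.1, 27 and 48.5 CPM in PBS animals and 38, 28.4, 37.6 and 34.3 CPM in cachexia, with overlapping groups and a log2 change of -0.05 (SE 0.37, adjusted p = 0.94). Mbl1, its relative on another chromosome, ran over 17.8 to 68.7 CPM in 8025 PBS animals and 54.6 to 102 CPM in cachexia (log2 change 0.95, SE 0.34, adjusted p = 0.035). That call was lost without 8025 PBS animals 3 or 4 or 8025 cachexia animals 1, 2 or 4 or in a fit of these groups alone (adjusted p between 0.0611 and 0.133). Masp2, the protease that cuts C4 and C2, was not called with either tumour (0.05 and -0.18).

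Masp1, a protease that activates Masp2, stood at 311, 406, 437 and 376 CPM in C26 PBS animals and at 486, 520.5, 558 and 860 CPM in cachexia, without overlap (log2 change 0.66, SE 0.22, adjusted p = 0.026). With 8025 it went from 306, 270.1, 306 and 399 CPM to 573, 524, 370 and 537 CPM, where animal 3 lay within the control range (log2 change 0.65, SE 0.22, adjusted p = 0.024). The C26 call was lost without C26 PBS animals 1 or 4 or C26 cachexia animal 4 or in a fit of these groups alone (adjusted p between 0.0564 and 0.17). The 8025 call was lost without 8025 PBS animals 1, 2 or 3 or 8025 cachexia animals 1, 2 or 4 (adjusted p between 0.0502 and 0.0837).

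Among the 4 convertase genes, C3 and C4b rose with both tumours, C2 fell with 8025, and Cfb was not called with either (-0.33 and 0.25). C3 stood at 419, 494, 281 and 623 CPM in C26 PBS animals and at 2583, 2640, 2529 and 2572 CPM in C26 cachexia. The cachexia animals lay close together and all above the controls, and the log2 change of 2.51 (SE 0.45, adjusted p = 0.00014), or 5.68-fold, was the highest of the 36 genes. In the 8025 cohort C3 stood at 1418, 1841, 1996 and 339 CPM in controls, of which animal 4 was far below the others, and at 3857, 2636, 2887 and 3732 CPM in cachexia. The groups did not overlap, with a log2 change of 1.23 (SE 0.43, adjusted p = 0.03). The call was lost without 8025 PBS animals 1 or 4 or 8025 cachexia animals 1 or 4 or in a fit of these groups alone (adjusted p between 0.0605 and 0.1).

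C4b, the component C4 that classical and lectin proteases cut, stood at 452, 251, 218 and 184 CPM in C26 PBS animals and 806, 757, 595 and 475 CPM in cachexia (log2 change 1.25, SE 0.27, adjusted p = 0.0012). With 8025 it went from 329, 292, 349 and 283 CPM to 1233, 1044, 644 and 1620 CPM (log2 change 1.86, SE 0.28, adjusted p = 9e-06). The groups of neither model overlapped, and animal 3 was the lowest of the 8025 cachexia animals. C2, which C4b anchors at the membrane, stood at 189, 196, 203 and 233 CPM in 8025 PBS animals and 112, 109.5, 100.4 and 126 CPM in cachexia, all 4 below the controls (log2 change -0.88, SE 0.26, adjusted p = 0.0099). In the C26 arms it stood at 106, 89.8, 84 and 111 CPM and 103, 77.6, 95.4 and 50.3 CPM, with overlap (log2 change -0.26, SE 0.25, adjusted p = 0.49). C4b has a paralog, C4a, beside which its reads may be split; C4a was not called in either model. C2 and Cfb lie 87 bases apart on chromosome 17 and run in the same direction.

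In the terminal pathway 1 of 6 genes rose with each tumour, and it was Hc, the mouse gene of component C5, which starts the pore. Hc stood at 810.3, 867, 1074 and 841 CPM in C26 PBS animals and 1886, 1633, 1373 and 1863 CPM in C26 cachexia, a log2 change of 0.91 (SE 0.20, adjusted p = 0.0013). In the 8025 cohort it stood at 834, 965, 1169 and 914 CPM and 1862, 2206, 1207 and 2051 CPM (log2 change 0.92, SE 0.20, adjusted p = 0.00085). The cachexia animals lay above the controls in both, although 8025 cachexia animal 3 exceeded the highest control only slightly. Of the pore proteins, C6 had log2 fold changes of -0.93 (adjusted p = 0.062) and -0.85 (adjusted p = 0.075). It lay below the PBS range in all 4 C26 cachexia animals (476 to 764 CPM in PBS animals, 187 to 396 CPM in cachexia). C8a, C8b, C8g and C9 ranged from -0.66 (C8g) to 0.88 (C8b) with C26 and from -0.72 (C8b) to 0.19 (C8a) with 8025, none of them called.

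Of the 3 complement inhibitors, Cfi and Serping1 rose with both tumours and C4bp rose with 8025. Cfi, the protease that cuts C3b and C4b, stood at 93.3, 148, 122 and 171 CPM in C26 PBS animals and 329, 259, 306 and 282 CPM in cachexia (log2 change 1.14, SE 0.18, adjusted p = 2.9e-05). With 8025 it went from 167, 172, 139.8 and 147 CPM to 263, 257, 209 and 239.9 CPM (log2 change 0.63, SE 0.18, adjusted p = 0.0079), and in neither model did the groups overlap. Serping1, the C1 inhibitor, which also blocks kallikrein, stood at 107, 73.9, 82.7 and 84.7 CPM and 277, 169, 226 and 164 CPM in the C26 arms (log2 change 1.26, SE 0.22, adjusted p = 8.4e-05). Its 8025 values were 116, 95.2, 161 and 148 CPM in controls and 250.2, 249, 168 and 258 CPM in cachexia (log2 change 0.83, SE 0.22, adjusted p = 0.0039), again without overlap. C4bp, which binds C4b and helps Cfi to cut it, ran over 233 to 347 CPM in 8025 PBS animals and 604 to 909 CPM in cachexia (log2 change 1.32, SE 0.21, adjusted p = 1.8e-05). With C26 its value was 0.44 (SE 0.21, adjusted p = 0.12).

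All 4 vitamin K-dependent procoagulants rose with C26, and 0 of 4 were called with 8025. F9, factor IX, whose gene lies on chromosome X, 59999464 to 60030760 and whose promoter window holds both motifs, stood at 64.5, 97.6, 75.2 and 98.7 CPM in C26 PBS animals. In C26 cachexia its values were 239, 226, 222 and 272 CPM, all at more than the highest control (log2 change 1.51, SE 0.20, adjusted p = 2.8e-06). In 8025 PBS animals F9 stood at 111, 117, 71.2 and 76.5 CPM and in 8025 cachexia at 129.8, 108, 101 and 105 CPM, with overlapping groups (log2 change 0.24, SE 0.20, adjusted p = 0.39). F7, the protease that tissue factor binds, ran over 54.1 to 91.3 CPM in C26 PBS animals and 93.8 to 129.5 CPM in cachexia (log2 change 0.88, SE 0.22, adjusted p = 0.0038). Its value with 8025 was -0.31 (SE 0.22, adjusted p = 0.3). F10, which cuts prothrombin, and F2, prothrombin itself, rose less with C26, by 0.49 (SE 0.16, adjusted p = 0.027) and 0.63 (SE 0.18, adjusted p = 0.0095) on the log2 scale. With 8025 they were at 0.00 and 0.08. The F10 call was lost without C26 PBS animals 1 or 3 or C26 cachexia animals 1 or 3 or in a fit of these groups alone (adjusted p between 0.0555 and 0.145). The F2 call was lost without C26 cachexia animal 1 or in a fit of these groups alone (adjusted p between 0.0572 and 0.0597). F7 and F10 lie 1.5 kb apart on chromosome 8.

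**Figure D2:**
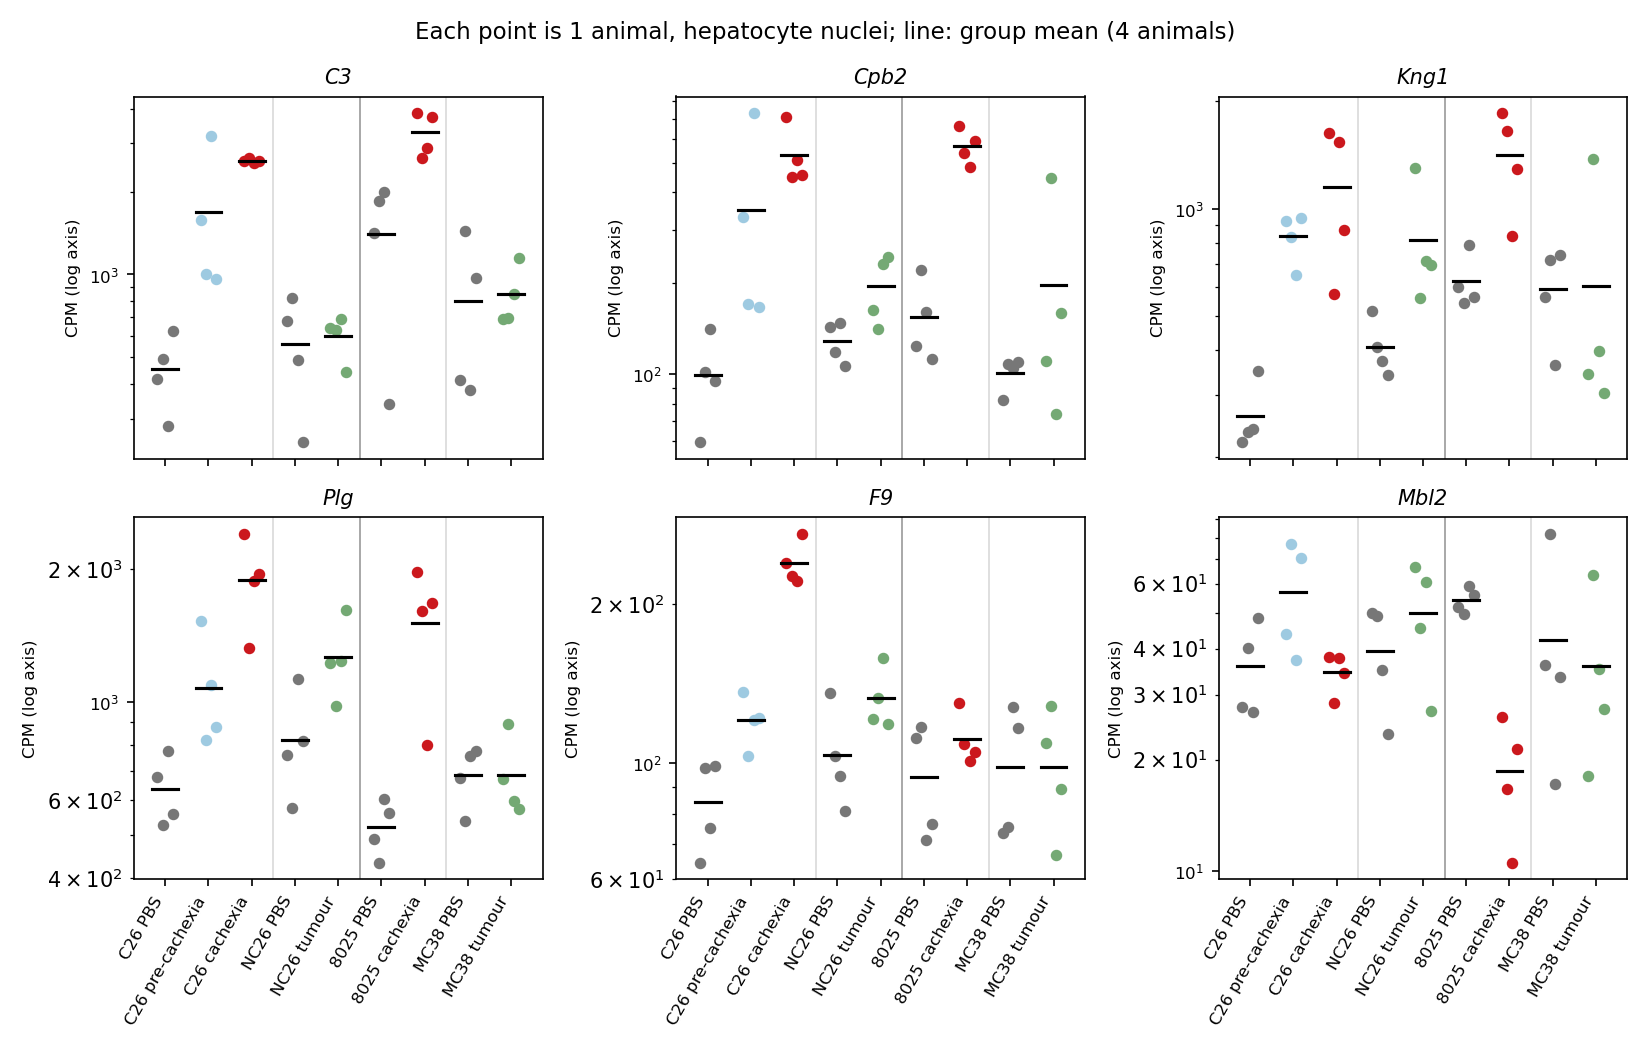
CPM (log axis) of C3, Cpb2, Kng1, Plg, F9 and Mbl2 in hepatocyte nuclei of each animal, by group (x axis); points are animals and lines are means of 4. The C26 cachexia animals lie above all C26 PBS animals for C3, Cpb2, Kng1, Plg and F9, the 8025 cachexia animals above all 8025 PBS animals for the first 4 of these and below them for Mbl2, and MC38 tumour animal 2 is the highest of its group for Cpb2 and Kng1.

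On the anticoagulant side, Pros1, protein S, rose with both tumours, and Proc, the protein C that it assists, was not called with either (log2 change -0.07, adjusted p = 0.76, and log2 change -0.33, adjusted p = 0.076). Pros1 stood at 54.9, 87.9, 101 and 106 CPM in C26 PBS animals and 324, 237, 350.1 and 283 CPM in C26 cachexia (log2 change 1.77, SE 0.25, adjusted p = 7.5e-06). In the 8025 cohort it stood at 119, 135, 148 and 131 CPM and 365, 340.4, 331 and 260.4 CPM (log2 change 1.28, SE 0.25, adjusted p = 0.00028). Every cachexia animal lay above every control. The coagulation inhibitors Serpinc1, antithrombin, and Serpind1, heparin cofactor II, fell with 8025 and had values of -0.07 and -0.08 with C26. Serpinc1 ran over 517 to 672 CPM in 8025 PBS animals and 396 to 461 CPM in cachexia, without overlap (log2 change -0.50, SE 0.12, adjusted p = 0.0021). Serpind1 overlapped, at 56.5 to 68.6 and 28.7 to 57.2 CPM (log2 change -0.54, SE 0.19, adjusted p = 0.034). It was not called without 8025 PBS animals 1, 2 or 4 or 8025 cachexia animals 2, 3 or 4 or in a fit of these groups alone (adjusted p between 0.0533 and 0.15). F5, the cofactor of factor X, and F13b, a subunit of the fibrin-linking enzyme, were not called in either model. F5 was within 0.03 of 0 in both, and F13b was at 0.63 (adjusted p = 0.093) with C26 and 0.26 (adjusted p = 0.5) with 8025.

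In the contact system both kininogens, the precursors of bradykinin, rose with both tumours, and Klkb1, the prekallikrein whose product releases bradykinin from them, fell with 8025. Kng1 stood at 221, 236, 240.2 and 349 CPM in C26 PBS animals and 1625, 573, 1540 and 869.7 CPM in C26 cachexia (log2 change 2.14, SE 0.38, adjusted p = 0.00013). In the 8025 cohort it stood at 602, 544, 790.1 and 565 CPM in controls and 1856, 1653, 839.6 and 1289 CPM in cachexia (log2 change 1.17, SE 0.37, adjusted p = 0.017). That call was lost without 8025 PBS animal 2 or 8025 cachexia animal 1 (adjusted p between 0.0506 and 0.056). Kng2 stood at 277, 247, 227 and 367 CPM and 1410, 626, 1499 and 865 CPM in the C26 arms (log2 change 1.98, SE 0.34, adjusted p = 8.6e-05). Its 8025 values were 452, 349, 433 and 572 CPM and 1480, 1305, 932 and 1053 CPM (log2 change 1.40, SE 0.33, adjusted p = 0.002). No cachexia animal overlapped the controls for either kininogen. The genes are close relatives that lie 29.2 kb apart on chromosome 16, and reads from shared stretches may be split between them.

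Klkb1 stood at 182, 173, 166 and 287 CPM in 8025 PBS animals, of which animal 4 was the highest, and 152, 131, 98.9 and 126 CPM in 8025 cachexia. The groups did not overlap (log2 change -0.67, SE 0.24, adjusted p = 0.037). The call was lost without 8025 PBS animal 4 or 8025 cachexia animals 2, 3 or 4 (adjusted p between 0.0562 and 0.181). In the C26 arms it stood at 184, 234, 233 and 221 CPM and 164, 112, 154 and 125 CPM, also without overlap, and was not called (log2 change -0.65, SE 0.24, adjusted p = 0.052). F11 and F12, the other proteases of the system, were not called with either tumour. F11, which lies 7.42 kb from Klkb1, had values of -0.70 and 0.15, and F12 of 0.40 and 0.08.

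All 4 genes of fibrinolysis and matrix binding rose with both tumours. Cpb2, a carboxypeptidase that protects fibrin from plasmin, stood at 59.7, 102, 141 and 95 CPM in C26 PBS animals and 708, 449.8, 512 and 456 CPM in C26 cachexia (log2 change 2.42, SE 0.42, adjusted p = 9.2e-05). In the 8025 cohort it stood at 124, 222, 161 and 112 CPM and 664, 539, 485 and 593 CPM, where its log2 change of 1.88 (SE 0.41, adjusted p = 0.00084), or 3.69-fold, was the highest of the 36. The lowest cachexia animal of either cohort was more than 2-fold above the highest control. Plg, plasminogen, stood at 677, 528, 777 and 560.4 CPM and 2399, 1323, 1880 and 1943 CPM in the C26 arms (log2 change 1.57, SE 0.24, adjusted p = 2.3e-05). With 8025 it went from 491, 434, 604 and 563 CPM to 1967, 1608, 799 and 1676 CPM, animal 3 again the lowest of the cachexia animals and above all controls (log2 change 1.53, SE 0.24, adjusted p = 2e-05).

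Serpinf2, the antiplasmin that blocks plasmin, stood at 89.7, 41.6, 55.4 and 37.3 CPM in C26 PBS animals and 157, 128, 138 and 86.3 CPM in cachexia (log2 change 1.19, SE 0.26, adjusted p = 0.0014). The highest control, animal 1, whose libraries stood apart, lay within the cachexia range. With 8025 it went from 53.1, 51.8, 90.3 and 91 CPM to 187, 162, 94 and 208 CPM, where animal 3 lay just above the highest control (log2 change 1.19, SE 0.26, adjusted p = 0.00098). Vtn, vitronectin, a protein that binds matrix, stood at 90.6, 57.6, 64.7 and 69.2 CPM and 183, 189, 166 and 111 CPM in the C26 arms, without overlap (log2 change 1.20, SE 0.25, adjusted p = 0.00066). Its 8025 values were 78.3, 91.3, 99.9 and 56.4 CPM and 136, 137, 87 and 209 CPM, with animal 3 inside the control range (log2 change 0.80, SE 0.25, adjusted p = 0.014). The 8025 call for Vtn was lost without 8025 PBS animal 4 or 8025 cachexia animal 4 (adjusted p between 0.0601 and 0.0932).

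In C26 pre-cachexia 12 of the 36 genes were already higher in hepatocyte nuclei and 0 lower, against 7.72% of all genes (4.78% higher and 2.94% lower). Their median log2 fold change was 0.57, against 0.01 over all genes. The pre-cachexia and cachexia arms share the same 4 PBS animals. All 12 were also called in cachexia: C3, C4b, Cfi, Cpb2, F7, Hc, Kng1, Kng2, Plg, Pros1, Serping1 and Vtn. F2, F9, F10, Masp1 and Serpinf2 were called in cachexia alone. The sum over the 36 genes was 13841 to 18469 CPM, above the PBS range. Kupffer and macrophage markers were called higher for 6 of 10 genes in this arm too (75.8 to 96.6 CPM). The summed level of the hepatocyte markers lay wholly below the PBS range, at 9132 to 12141 CPM, with 1 of 10 called higher and 1 lower. T and NK cell markers, of which 1 of 7 was called higher, summed to 9.95 to 36.9 CPM against 6.99 to 23.9 CPM in PBS animals. The part of these markers in the result was not tested.

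In the pre-cachexia animals C3 stood at 1579, 1007, 3173 and 964 CPM and Cpb2 at 331, 171, 731 and 167 CPM, animal 3 being the highest for both and no animal overlapping the controls. Their log2 changes were 1.89 (SE 0.44, adjusted p = 0.0085) and 1.81 (SE 0.41, adjusted p = 0.007). Without animal 3 the Cpb2 value was 1.16 (adjusted p = 0.0411). Kng2 stood at 969, 699, 381 and 759.7 CPM, animal 3 being the lowest (log2 change 1.33, SE 0.33, adjusted p = 0.014). Kng1 stood at 920.5, 833, 649 and 938 CPM (log2 change 1.68, SE 0.38, adjusted p = 0.0065). Pros1 stood at 190.1, 206, 242 and 226 CPM (log2 change 1.30, SE 0.25, adjusted p = 0.0018) and Cfi at 240.1, 249.9, 231 and 248 CPM (log2 change 0.86, SE 0.18, adjusted p = 0.0036). For both the 4 animals lay close together and all above the controls. Of the 12 calls, 5 held under every alternative tried. Plg, at 1522, 823, 1092 and 877 CPM (log2 change 0.76, SE 0.24, adjusted p = 0.045), was lost without C26 PBS animals 2, 3 or 4 or C26 pre-cachexia animals 1 or 3 or in a fit of these groups alone or without the filter on low counts (adjusted p between 0.0553 and 0.246). The F7 call was lost without C26 PBS animals 2, 3 or 4 or C26 pre-cachexia animals 1 or 2 or in a fit of these groups alone (adjusted p between 0.0772 and 0.172). That of Vtn was lost without C26 PBS animals 2, 3 or 4 or C26 pre-cachexia animals 1 or 3 or in a fit of these groups alone or with the replicate number as a block or without the filter on low counts (adjusted p between 0.0541 and 0.165). Kng2 lost its call without C26 PBS animals 2 or 3 or C26 pre-cachexia animal 1 (adjusted p between 0.05 and 0.0762). C4b, Hc and Cpb2 were not called in a fit of these groups alone (adjusted p = 0.101, 0.0654 and 0.0743). Without C26 PBS animal 1, 15 genes were called higher.

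Set directly against pre-cachexia, C26 cachexia had 2 of the 36 genes higher and 3 lower, against 9.09% of all genes (4.81% higher and 4.27% lower). F9 went from 136, 103, 120.2 and 122 CPM to 239, 226, 222 and 272 CPM, without overlap (log2 change 1.0, SE 0.20, adjusted p = 0.0014), and in pre-cachexia it had not been called against PBS (log2 change 0.52, SE 0.20, adjusted p = 0.11). Plg also rose further (log2 change 0.81, SE 0.24, adjusted p = 0.029). C2, C6 and Cfb fell between the stages. C2 stood at 186, 202, 124 and 155 CPM in pre-cachexia, above all PBS animals, and at 103, 77.6, 95.4 and 50.3 CPM in cachexia, within or below the PBS range (log2 change -1.03, SE 0.26, adjusted p = 0.0089). C6 ran over 588 to 1348 CPM and 187 to 396 CPM (log2 change -1.45, SE 0.36, adjusted p = 0.0097), and Cfb over 206 to 376 and 113 to 217 CPM (log2 change -0.66, SE 0.22, adjusted p = 0.048). F9 and C6 were called under every alternative tried. C2 was not called without C26 cachexia animal 4 (adjusted p = 0.0553). Cfb was not called without C26 cachexia animals 3 or 4 or C26 pre-cachexia animals 1, 2 or 3 or in a fit of these groups alone or without the filter on low counts (adjusted p between 0.0593 and 0.205). Plg lost its call without C26 cachexia animals 1, 3 or 4 or C26 pre-cachexia animals 2 or 4 or in a fit of these groups alone (adjusted p between 0.056 and 0.13).

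With the tumours that left weight stable, 1 of the 36 genes was called in NC26, against 0.324% of all genes, (0.316% higher), and 0 in MC38, against 0%. DESeq2 also called 0 in MC38, where 572 of all 13274 genes had an unadjusted p under 0.05. The gene was Hc, at 1079, 1064, 1183 and 821 CPM in NC26 PBS animals and 2094, 1407, 2199 and 2300 CPM with the tumour, without overlap (log2 change 0.95, SE 0.20, adjusted p = 0.024). It was not called without NC26 PBS animals 1, 2 or 4 or NC26 tumour animals 1, 3 or 4 or in a fit of these groups alone (adjusted p between 0.0611 and 0.092). In MC38 Hc stood at 925, 1040, 756 and 992 CPM and 926, 1428, 1146 and 1182 CPM, with overlap (log2 change 0.33, SE 0.20). Further NC26 values that did not pass the test were 1.05 (adjusted p = 0.19) for Kng2, 1.0 (adjusted p = 0.27) for Kng1 and 0.76 (adjusted p = 0.051) for Cfi. In all 4 NC26 animals 8 of the 36 genes lay above the PBS range and 1 (C8g) below it, against 4.64% and 3.09% of all genes tested. Summed over the 36 genes the level was 10065 to 12373 CPM in NC26 PBS animals and 13319 to 17015 CPM with the tumour. The median log2 fold change was 0.36 against 0.00 over all genes. In MC38 the sums were 9979 to 12264 and 10021 to 16734 CPM. The highest was that of tumour animal 2, in which Kng1 stood at 1374 CPM against 304 to 399 CPM in the other 3.

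The difference between a cachexia tumour's effect and that of the weight-stable tumour in the same strain was tested directly. For C26 against NC26 it was called for 2 of the 36 genes, against 1.89% of all genes (0.934% higher with C26): F9 (log2 change 1.16, SE 0.28, adjusted p = 0.025) and C3 (log2 change 2.40, SE 0.61, adjusted p = 0.031). C3 stood at 678, 820.5, 488 and 246 CPM in NC26 PBS animals and 637, 626, 692 and 442 CPM with the tumour, the groups overlapping (log2 change 0.10, SE 0.42, adjusted p = 0.95). F9 stood at 136, 103, 94.2 and 80.9 CPM and 121, 133, 158 and 118 CPM there (log2 change 0.36, SE 0.20, adjusted p = 0.48). The F9 call was lost without C26 PBS animal 3 or C26 cachexia animal 4 or NC26 PBS animal 1 or NC26 tumour animals 1 or 4 (adjusted p between 0.0656 and 0.101). The C3 call was lost without C26 PBS animals 2 or 3 or C26 cachexia animals 3 or 4 or NC26 PBS animals 1 or 2 or NC26 tumour animals 1, 2 or 4 (adjusted p between 0.0522 and 0.0817). Leaving out C26 PBS animal 1, 3 of the 36 genes were called. For 8025 against MC38 it was called for 3, against 7.21% (4.19% higher with 8025). They were C4bp (log2 change 1.24, SE 0.29, adjusted p = 0.0085), Plg (log2 change 1.53, SE 0.34, adjusted p = 0.0055) and Kng2 (log2 change 1.48, SE 0.47, adjusted p = 0.048). Plg stood at 673, 539.7, 755 and 775 CPM in MC38 PBS animals and 672, 895, 599 and 574 CPM with the tumour. Kng2 stood at 485, 436, 371 and 585 CPM and 278, 895, 397 and 208 CPM, and both genes overlapped. Kng2 was called under few alternatives: it was lost without 8025 PBS animals 1, 2 or 3 or 8025 cachexia animals 1, 2 or 4 or MC38 PBS animals 1, 2, 3 or 4 or MC38 tumour animals 1, 3 or 4 or in a fit of these groups alone or with the replicate number as a block or without the filter on low counts (adjusted p between 0.0536 and 0.108). Without MC38 tumour animal 2, the highest of its group, the difference was 2.07 (adjusted p = 0.00251).

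Between the cachexia tumours themselves, 13 of the 36 genes rose with both: C3, C4b, Cfi, Cpb2, Hc, Kng1, Kng2, Masp1, Plg, Pros1, Serpinf2, Serping1 and Vtn. No gene rose with one and fell with the other. A call in one model alone is no test of a difference, so the effects were set against each other directly, which calls 0.957% of all genes (0.392% higher with C26). That test called 1 of the 36, F9, whose effect was larger with C26 by 1.27 (SE 0.28, adjusted p = 0.025) on the log2 scale. The call was lost without 8025 PBS animals 1 or 2 or 8025 cachexia animal 3 or C26 cachexia animal 4 (adjusted p between 0.0577 and 0.0676). F7 had a difference of 1.19 (SE 0.31, adjusted p = 0.051) and Mbl2 of 1.48 (SE 0.53, adjusted p = 0.17). That of C3 was 1.28 (SE 0.60, adjusted p = 0.33) and that of C4bp -0.88 (SE 0.29, adjusted p = 0.14), so that none of these 4 passed the threshold. Differences closest to 0 were those of Serpinf2 (0.00, SE 0.38), Hc (-0.01, SE 0.28) and Masp1 (0.02, SE 0.30). Without C26 PBS animal 1, 2 genes were called. Tumour line and strain cannot be told apart in this comparison.

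**Figure D3:**
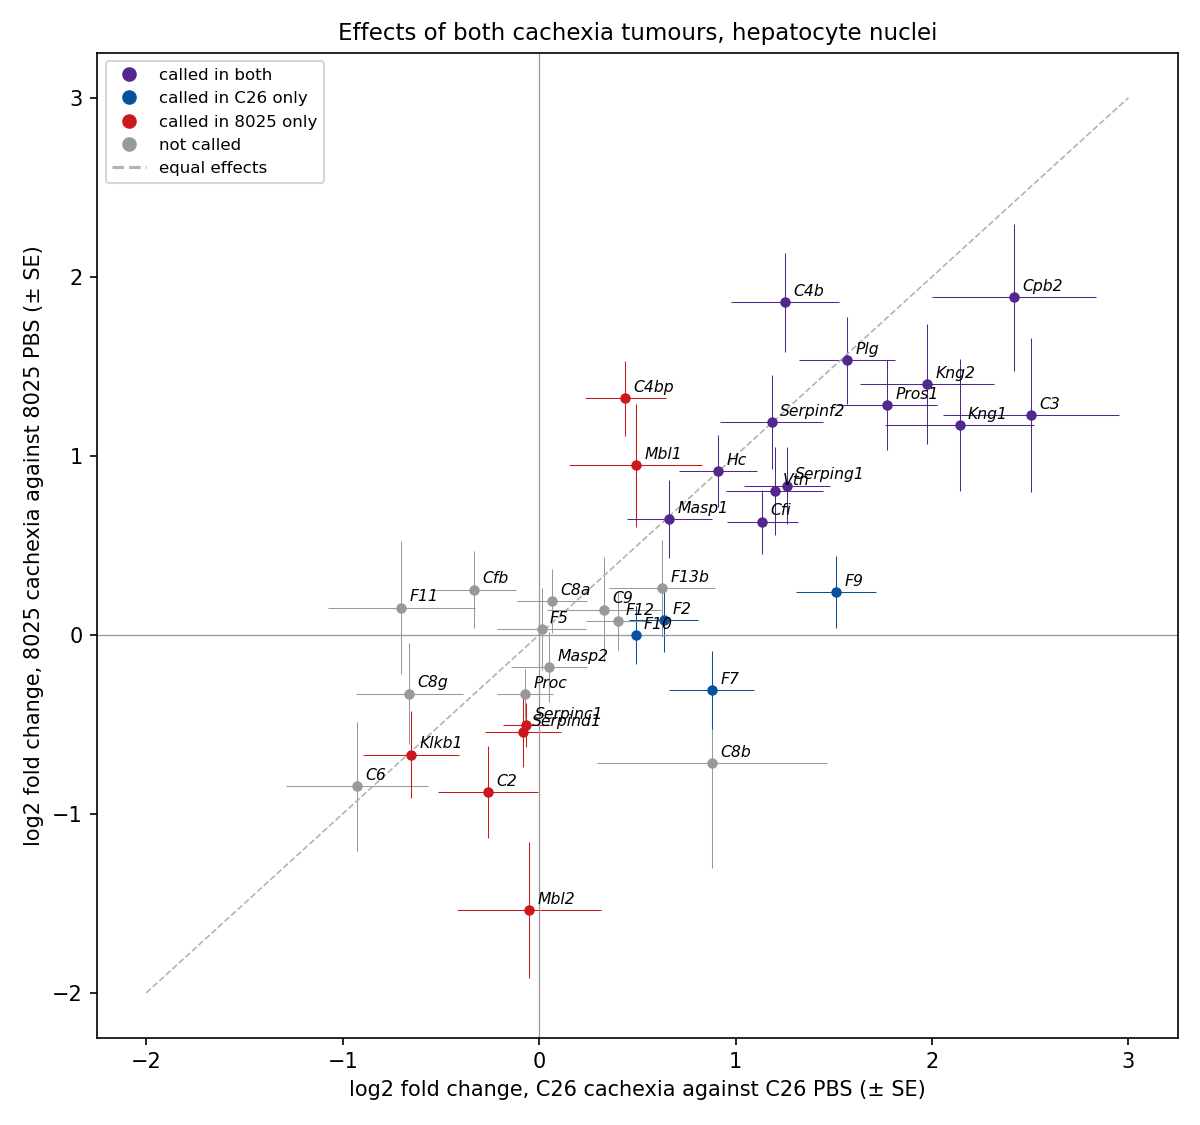
Log2 fold change in C26 cachexia (x axis) against that in 8025 cachexia (y axis) for the 36 genes in hepatocyte nuclei, each against its own 4 PBS animals; bars are ± SE, colours show where a gene was called and the dashed line marks equal effects. The 13 genes called in both lie in the upper right, F9 lies far to the right near 0 on the y axis, and Mbl2 is the lowest on the y axis.

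Whole liver nuclei of the same animals were tested in the same way. In C26 cachexia 18 of the 36 genes rose and 1 fell there, against 22.1% of all genes (11.8% higher and 10.3% lower). All 17 genes called in hepatocyte nuclei were among them. F12 (log2 change 0.56, SE 0.18, adjusted p = 0.021) and Klkb1 (log2 change -0.80, SE 0.22, adjusted p = 0.0081) were added. In 8025 cachexia 13 rose and 7 fell, against 36.6% (18.7% higher and 17.9% lower). Cfi and Mbl1 were called in hepatocyte nuclei alone, and C8g (log2 change -0.64, SE 0.25, adjusted p = 0.047) and Proc (log2 change -0.38, SE 0.12, adjusted p = 0.015) in whole liver alone. C8g was lost without 8025 PBS animals 2, 3 or 4 or 8025 cachexia animals 2 or 3 or in a fit of these groups alone or with DESeq2's size factors in edgeR or with the replicate number as a block or without the filter on low counts (adjusted p between 0.0512 and 0.156). Proc was lost without 8025 cachexia animal 3 or in a fit of these groups alone (adjusted p between 0.127 and 0.138). In pre-cachexia 12 rose, against 12.8% (8.72% higher). Of these 12, 10 were those called in hepatocyte nuclei, with Plg and Vtn not called here and C2 and C8a added. C2 was lost without C26 PBS animals 1, 2, 3 or 4 or C26 pre-cachexia animals 1, 2 or 4 or with DESeq2's size factors in edgeR or with the replicate number as a block or without 5 genes with rRNA-like reads or without the filter on low counts (adjusted p between 0.0515 and 0.16). The C8a call was lost without C26 PBS animals 2, 3 or 4 or C26 pre-cachexia animals 1, 2, 3 or 4 or in a fit of these groups alone or with DESeq2's size factors in edgeR or with the replicate number as a block or without 5 genes with rRNA-like reads or without the filter on low counts (adjusted p between 0.0533 and 0.118). Between cachexia and pre-cachexia 5 were higher and 2 lower, against 11.6% (4.68% higher and 6.94% lower). C3 (adjusted p = 0.0364), Serpinf2 (adjusted p = 0.0499) and Vtn (adjusted p = 0.0216) were higher here alone, and Cfb was not called. Of 14 alternatives, C3 was lost in 5 (adjusted p between 0.0626 and 0.152) and Serpinf2 in 7 (adjusted p between 0.0504 and 0.152). Vtn was lost in 3 (adjusted p between 0.0666 and 0.0797). Of the 7 calls between these stages, 1 held under every alternative tried. With NC26, Hc was the 1 gene called (log2 change 0.86, SE 0.21, adjusted p = 0.047), against 0.728% (0.706% higher). It was not called without NC26 PBS animals 1, 2, 3 or 4 or NC26 tumour animals 1, 3 or 4 or in a fit of these groups alone or with the replicate number as a block or without the filter on low counts (adjusted p between 0.0575 and 0.13). With MC38 0 were called, against 0%, where 790 genes had an unadjusted p under 0.05. The difference between C26 and 8025 effects was called for 4 genes, against 6.57% (1.97% higher with C26). They were F9 (log2 change 1.44, SE 0.32, adjusted p = 0.0056), F7 (log2 change 1.09, SE 0.28, adjusted p = 0.017), Serpind1 (log2 change 0.86, SE 0.25, adjusted p = 0.029) and Serpinc1 (log2 change 0.60, SE 0.17, adjusted p = 0.026). All 4 were higher with C26. The Serpind1 call was lost without 8025 PBS animal 1 or 8025 cachexia animal 3 or C26 PBS animal 4 or C26 cachexia animals 2 or 3 (adjusted p between 0.0556 and 0.0837). That of Serpinc1 was lost without 8025 PBS animal 2 or 8025 cachexia animal 3 or C26 PBS animals 2 or 4 or C26 cachexia animal 2 or in a fit of these groups alone (adjusted p between 0.0517 and 0.0676), and that of F7 in a fit of these groups alone (adjusted p = 0.0576). Of these, F9 had the same call in hepatocyte nuclei, and whole liver nuclei came from the same animals, so this is no independent replicate.

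Other whole liver differences involved the weight-stable tumours. C26 against NC26 was called for C3 (log2 change 2.20, SE 0.54, adjusted p = 0.019) and Cpb2 (log2 change 1.98, SE 0.57, adjusted p = 0.048), against 3.4% (1.67% higher with C26). Cpb2 was lost without C26 PBS animals 1, 2, 3 or 4 or C26 cachexia animals 1, 2, 3 or 4 or NC26 PBS animals 1, 2, 3 or 4 or NC26 tumour animals 1, 2 or 4 or with the replicate number as a block (adjusted p between 0.0539 and 0.0956). For 8025 against MC38, C4bp, Plg, Serpinf2 and C4b were called higher and C8b lower, against 13.5% (7.58% higher and 5.96% lower). C4bp was lost without 8025 PBS animals 2, 3 or 4 or 8025 cachexia animals 2 or 3 or MC38 PBS animals 1, 2 or 4 or MC38 tumour animals 2 or 3 or in a fit of these groups alone (adjusted p between 0.0542 and 0.0865). Serpinf2 was lost without 8025 PBS animals 1 or 2 or 8025 cachexia animals 1, 2 or 4 or MC38 PBS animals 1, 2, 3 or 4 or MC38 tumour animals 1, 2, 3 or 4 or in a fit of these groups alone or without the filter on low counts (adjusted p between 0.0509 and 0.116). The C8b difference was -2.63 (SE 0.79, adjusted p = 0.024), and without MC38 tumour animal 2 it was -0.85 (adjusted p = 0.319). The C8b call was lost without 8025 PBS animal 2 or 8025 cachexia animal 3 or MC38 PBS animals 1 or 3 or MC38 tumour animal 2 or in a fit of these groups alone or with the replicate number as a block (adjusted p between 0.0514 and 0.319). C8b stood at 92.7, 845, 37.3 and 105 CPM in the whole liver nuclei of the MC38 tumour animals, animal 2 being far above the other 3. This gene was singled out after its values were seen. The strains differed in 13 genes there as well (4 higher and 9 lower in BALB/c), against 39.6% (18.2% higher and 21.4% lower).

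**Figure D4:**
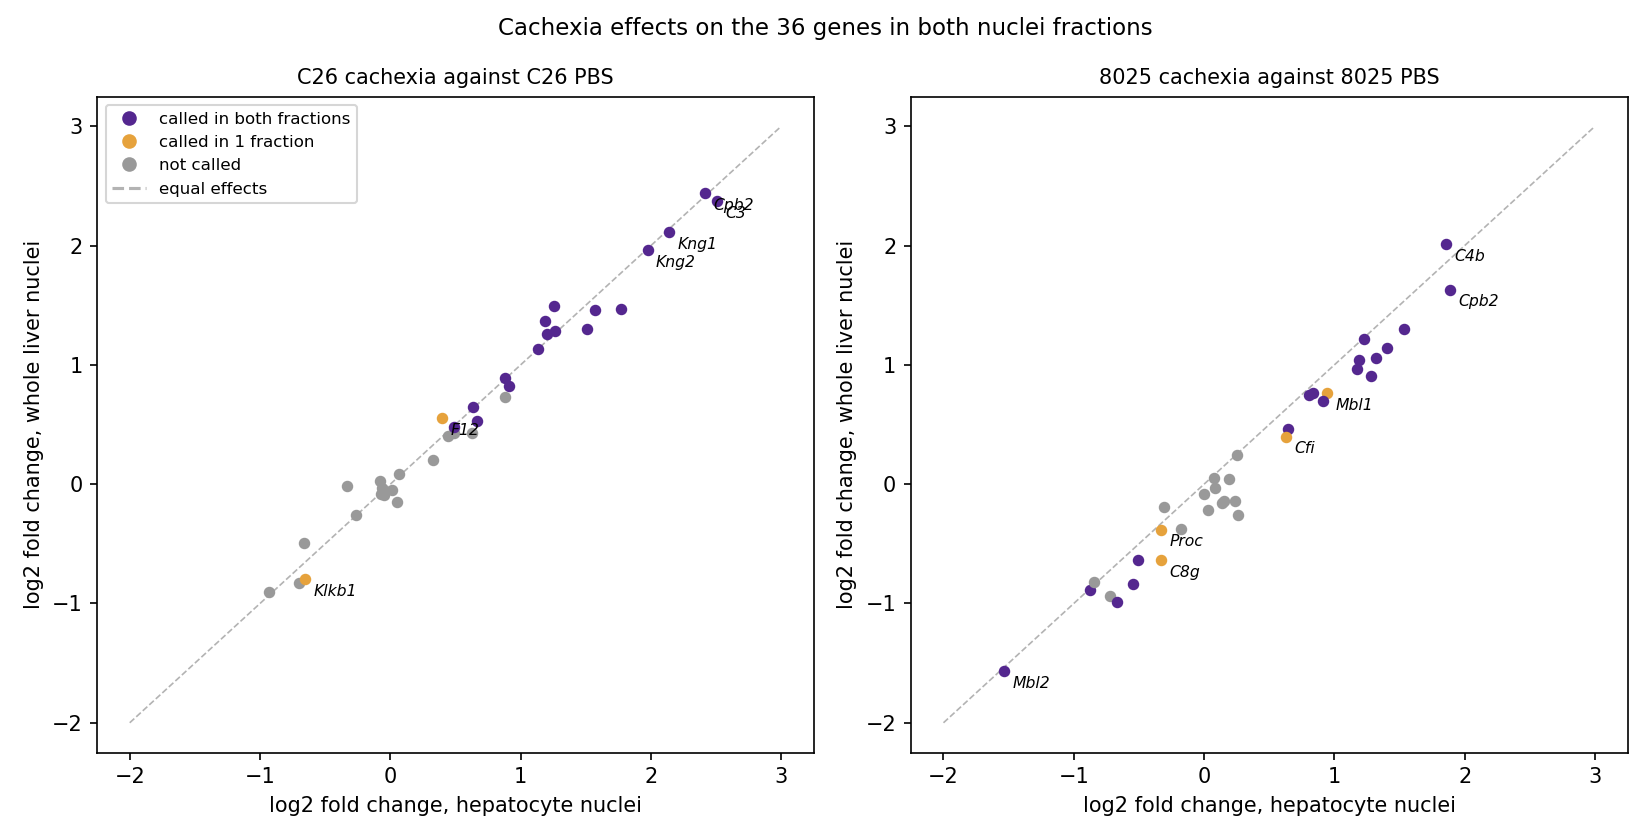
Log2 fold change in hepatocyte nuclei (x axis) against that in whole liver nuclei (y axis) of the same animals for the 36 genes, in C26 cachexia (left) and 8025 cachexia (right), each 4 animals against 4; colours show in how many fractions a gene was called and the dashed line marks equal effects. Points follow the line on the left and lie mostly at or just below it on the right, and the genes called in 1 fraction are F12 and Klkb1 on the left and Cfi, Mbl1, C8g and Proc on the right.

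No cachexia effect on any of the 36 genes differed between the fractions in edgeR's test: 0 were called for C26, against 0% of the 14054 genes tested (295 at an unadjusted p under 0.05). For 8025 0 were called, against 0.0427% (522). In PBS animals 14 of the 36 genes were higher in hepatocyte nuclei than in whole liver and 0 lower, against 50.9% of all genes (26.4% higher). The median log2 difference of the 36 was 0.24, against 0.08 over all genes. C4b had the largest difference (log2 change 0.50, SE 0.13, adjusted p = 0.0015), followed by F7 (log2 change 0.48, SE 0.11, adjusted p = 0.00014) and F12 (log2 change 0.44, SE 0.09, adjusted p = 2.8e-05). Pros1 had the lowest (log2 change -0.12, SE 0.12, adjusted p = 0.41). With each animal's pair of libraries as a block, 30 were called, 29 higher and 1 lower, against 69.6% of all genes (41.4% higher and 28.2% lower). The fit with no block called 16 without C26 PBS animal 1.

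Further genes of both cascades, made partly outside the hepatocyte or acting beside the 36, were taken from a list of 63 names, of which 62 were in the table and 57 were tested in hepatocyte nuclei. In C26 cachexia 17 of the 57 rose and 3 fell, against 12.2% and 10% of all genes tested. In pre-cachexia 9 rose and 0 fell, against 4.78% and 2.94%. In 8025 cachexia 21 rose and 6 fell, against 16.2% and 13.1%. With NC26 and MC38 0 were called, against 0.324% and 0%. Without C26 PBS animal 1, 16 rose and 4 fell in C26 cachexia and 9 rose and 1 fell in pre-cachexia. The fibrinogen chains Fga and Fgg rose by 2.70 (SE 0.36, adjusted p = 2.3e-06) and 2.64 (SE 0.42, adjusted p = 3.4e-05) with C26. Both were also higher in 8025 cachexia than in 8025 PBS animals, without overlap. Fga ran over 147.5 to 227.2 CPM in those controls and 692.5 to 1443 CPM in cachexia. Fgg ran over 125.1 to 178 and 657 to 1438 CPM. F3, tissue factor, which starts coagulation, fell with both tumours, from 6.47 ± 1.49 to 2.7 ± 1.3 CPM with C26 and from 8.1 ± 0.613 to 2.23 ± 0.467 CPM with 8025 (SD, n = 4). Serpine2, a thrombin inhibitor, fell with both as well (log2 change -1.48, SE 0.47, adjusted p = 0.022 with C26, and log2 change -2.41, SE 0.49, adjusted p = 0.00044 with 8025). Vkorc1, which recycles vitamin K for the procoagulants, fell with C26 (log2 change -0.76, SE 0.20, adjusted p = 0.0065), and Lman1, which helps to export factor V, fell with 8025 (log2 change -0.77, SE 0.20, adjusted p = 0.0049). Vkorc1 was also lower in 8025 cachexia (2.95 to 5.29 CPM) than in 8025 PBS animals (6.07 to 6.75 CPM). Lman1 was not among the 3 genes called lower with C26. Its C26 cachexia animals (62.4 to 85.5 CPM) lay below all C26 PBS animals (89.4 to 141.7 CPM), as did 9.07% of all genes tested. Among the highest values with 8025 were those of a pair of genes near the detection limit in controls. A2m stood at 0.13 ± 0.158 and 3.88 ± 2.56 CPM and F13a1 at 0.215 ± 0.0679 and 4.11 ± 2.4 CPM. F13a1 is also expressed by macrophages, whose markers were higher in the same libraries; their part in the result was not tested.

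Of the 36 genes, 3 overlap another gene of the table, and as the use of strand in counting is not given in the sources used here, their reads cannot be told apart. They are Serpind1 with Pi4ka, C8g with Fbxw5 and Masp2 with Tardbp. Pi4ka had log2 fold changes of 0.06 (adjusted p = 0.79) in C26 and -0.40 (adjusted p = 0.033) in 8025 cachexia, where Serpind1 fell too. Tardbp had -0.29 (adjusted p = 0.086) and -0.36 (adjusted p = 0.023), and Fbxw5 -0.34 (adjusted p = 0.35) and -0.19 (adjusted p = 0.6). In the GENCODE gene annotation, other protein-coding genes also overlap C2 (Zbtb12 and Gm20547), Cfb (Gm20547), Masp1 (Rtp4) and Plg (Slc22a3). The same holds for Serpinc1 (Zbtb37), C8a (Gm17662) and Klkb1 (Gm45753). The part of these genes in the counts was not tested.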

How the data were processed

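RNA of nuclei was measured in 72 libraries: bead-bound hepatocyte nuclei and whole liver nuclei of 36 mice, in 9 arms of 4 animals. Stranded libraries came from total RNA with no poly-A selection and were sequenced as 50-base read pairs, per the labels' protocols. The submitters' processing notes name STAR 2.4.2a, DESeq2 1.24.0 and the build mm10, with no roles. The deposited values are raw counts per gene, introns included, per the file headers; 946 genes, among them Cfb and C3, had part of the span left out. The use of strand in counting is not given in the sources used here.

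Counts were analysed in R 4.3.3 with edgeR 4.0.16, using filterByExpr, TMM scaling and quasi-likelihood F tests of 1 factor with a level per arm. Fits were made over all 36 libraries of a fraction (13274 genes kept in hepatocyte nuclei, 13738 in whole liver) or over all 72 (14054 genes). P-values were adjusted over all genes tested by Benjamini-Hochberg, with calls at an adjusted p under 0.05. SE is the size of the log2 fold change divided by the square root of F. The script was tested on simulated data. The counts limit precision little, since no gene of the 36 had under 89 counts in a library; the spread between animals sets it. Replicates are separate animals by the labels' animal numbers, which also tie both fractions of an animal: their deviations correlated by more than 0.1 in 35 of 36 animals (median 0.539), so the animal was a block in an alternative.

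Alternatives were DESeq2's size factors in edgeR, no filter, DESeq2 1.42.0, leaving out 5 genes with ribosomal-RNA-like reads, fits of the compared groups alone, a replicate block, and leaving out each library. Between the fractions each animal was left out instead, with both its libraries. The 36 genes, the roles, the other pathway genes and the marker lists were chosen with earlier results of these data known. Values of each animal are given for genes called with both cachexia tumours, for the 3 highest and 3 lowest called genes of either, for those called with a weight-stable tumour, and for the 2 largest called differences between tumours or strains. Of other pathway genes, the 3 highest and 3 lowest called are named, except that some are not reported here.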

Additional observations from a re-analysis of the deposited data

Results flagged for a closer look

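In 11 of 153 groups of 4 animals (17 genes in 9 arms, hepatocyte nuclei) a single animal lay far from the other 3, its gap exceeding Dixon's critical value for 4 samples. Chance alone gives about 1 in 20 groups if groups are independent and values normal. Here the 17 genes were measured in the same animals, so the count cannot show an excess over chance. MC38 tumour animal 2 was such an animal for Cfi (267 CPM), Kng1 (1370 CPM) and Pros1 (333 CPM), high for each. NC26 PBS animal 1 was high for Cfi (174 CPM) and Pros1 (126 CPM), and NC26 PBS animal 3 for Serpinf2 (74.9 CPM). MC38 PBS animal 3 was low for Cfi (105 CPM) and MC38 PBS animal 2 high for Pros1 (163 CPM). C26 PBS animal 4 was high for Kng1 (349 CPM), 8025 PBS animal 4 high for Klkb1 (287 CPM), and 8025 cachexia animal 3 low for Serping1 (168 CPM).

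Effects of the C26 and 8025 tumours differed in edgeR's test of the difference for F9, by 1.27 on the log2 scale in hepatocyte nuclei (adjusted p = 0.025) and 1.44 in whole liver nuclei (0.0056). In whole liver nuclei they also differed for F7 (1.09, adjusted p = 0.017), Serpind1 (0.86, 0.029) and Serpinc1 (0.60, 0.026), each toward C26.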

How the results depend on the processing

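Over all alternatives no value of a single gene changed sign while called: 13576 single-gene values kept their side of the threshold, 333 lost a call and 167 gained one. The 13576 include values called in neither fit, so they do not measure how called genes held. In hepatocyte nuclei 14 of 17 calls in C26 cachexia held under every alternative. So did 5 of 12 in pre-cachexia and 13 of 20 in 8025 cachexia. The direction of values called in neither the main fit nor the alternative was not compared. Leaving out a library in turn, the number of the 36 genes called in hepatocyte nuclei ran from 16 to 18 in C26 cachexia, 8 to 15 in pre-cachexia, 2 to 7 between these stages, 15 to 18 in 8025 cachexia, 0 to 4 in NC26, 0 to 0 in MC38, 0 to 3 for C26 against NC26, 2 to 6 for 8025 against MC38, 0 to 2 for C26 against 8025 and 12 to 15 between strains. In whole liver nuclei the ranges were 16 to 19, 6 to 11, 3 to 8, 17 to 20, 0 to 2, 0 to 0, 1 to 3, 2 to 6, 2 to 6 and 11 to 14 in the same order. Between the fractions, where each animal was left out with both its libraries, the range was 12 to 20. A fit of the compared groups alone, which has fewer samples, gave 6 in pre-cachexia (12 in the fit of all groups), 3 between stages (5), 5 for C26 against NC26 (2) and, in whole liver, 6 for C26 against NC26 (2) and 2 for 8025 against MC38 (5). DESeq2's Wald test gave 3 in NC26 (1), 4 for C26 against NC26 (2) and 2 for C26 against 8025 (1), and in whole liver 3 in NC26 (1) and 4 for C26 against NC26 (2). Without the filter on low counts, 0 were called in NC26 whole liver (1); the causes were not tested. In C26 cachexia DESeq2 called 19, 2 of them lower. Between animals of the same replicate number, the correlation of deviations exceeded 0.1 in every pair in no comparison of arms. It was highest for C26 pre-cachexia against C26 PBS in hepatocyte nuclei (median 0.185, over 0.1 in 3 of 4 pairs). A pairing of those arms can therefore not be excluded. With the number as a replicate block, 2 were called for C26 against 8025 (1), and in whole liver 0 in NC26 (1) and 1 for C26 against NC26 (2); other counts moved by under 1.5 times. With the animal as a block, 30 were called between the fractions (14). With 4 animals an arm, and weight-stable arms and strains in cohorts of their own, small differences may go undetected.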

Other observations

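Of the other pathway genes, a pair differed between the strains to an extent that no other value here approached; they were chosen after their values were seen. C1s2 and C1rb are copies of the genes of the C1 proteases, which start the classical pathway. C1s2 had 57 to 828 counts in each of the 20 hepatocyte libraries of BALB/c mice (2.57 to 13.7 CPM) and 0 to 3 counts in the 16 of C57BL/6N mice, 10 of them at 0. C1rb had 18 to 292 counts in BALB/c and 0 to 3 in C57BL/6N, 13 at 0. The near-identical copies C1s1 and C1ra were present in both strains, at 115 to 199.8 CPM in BALB/c and 211 to 342 CPM in C57BL/6N for C1s1, and 21.9 to 74.1 and 29.2 to 72.6 CPM for C1ra. Reads may be split between such copies.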
